A study of Dugesia japonica with 4 samples.

Results

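The 84 gene models described here were higher at the outer rim than in the interior of head blastema sections of the planarian Dugesia japonica, with limits on how far each could favour the left side or the ends of a section. They were chosen by measured values, among 38792 features of 4 spatial libraries. A candidate carried a DJKW identifier (28999 features), had a UMI in at least 20% of spots and averaged at least 50 CPM over wells, and well A, plus 1 CPM, had to exceed 0.25 of the lowest other well, which left 2684 features. A UMI, or unique molecular identifier, counts 1 captured RNA molecule, and CPM are counts per 1000000 UMIs of the summed spots. Of the 2684, 184 were higher in edge than in interior spots in 4 of 4 wells with a mean log2 ratio of at least 1, taken on CPM + 5. A mean left over right log2 ratio under 0.7 kept 102 of them, and a mean ratio of section ends over middle under 0.7, among edge spots, kept 84. The 82 features at or above the left limit and the 18 at or above the ends limit serve as neighbours for comparison.

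All libraries came from wild-type animals, with head blastema fresh frozen at 5 dpa (as labelled) and cut at 8 µm, and the labels give 1 group with no second genotype or treatment. The labels call them wells A, B, C and D and do not say whether the wells hold different animals. The p-values of the main tests measure how far comparisons made within a well vary over these libraries, a spread that may be technical. Each library was captured on a Visium array, whose barcoded spots lie on a hexagonal grid, and a spot can hold several cells of different types. Most comparisons are therefore between places within the sections. Section size is compared between sections of a well, and levels are also described between wells.

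A blastema is the mass of new tissue that forms at a wound and is rebuilt into the missing part. In a planarian the outermost tissue is a single-layered epidermis, with the body wall muscle beneath it, while gut, brain and the dividing stem cells called neoblasts lie further in. Cells that will become epidermis are made inside the body and move outward as they mature. The deposited features have identifiers and no symbols, and none of 32 planarian cell type marker names occurred among them, so no role can be given to any feature below and the labelled tissue was not checked against markers. A higher level in a spot can come from more cells of a type or from more RNA per cell, and these cannot be told apart.

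The libraries held 1216 tissue spots and 11838407 UMIs, from 1499569 UMIs (well A) to 4395756 UMIs (well C). An edge spot (882) had at least 1 of its 6 neighbours off tissue, and an interior spot (334) had none. The median edge spot carried 6427 to 9631 UMIs by well and the median interior spot 8675 to 16040, so edge spots were shallower in every well. Groups of at least 5 connected spots are called sections (48, 12 in each well), and 53 spots lay outside them. Wells A and B had 23 and 32 interior spots, so their interior values rest on fewer UMIs. Well A stood apart from the other wells, with the highest whole-well CPM for 53.1% of the 2684 candidates. The arrays of the 4 wells use 1 set of barcodes, each at the same array position, so 62 to 183 tissue barcodes per well also occur on tissue in another well and do not mark shared material.

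The 84 features together took 4.57%, 2.91%, 2.72% and 3.32% of edge UMIs in wells A, B, C and D, against 2.31%, 1.38%, 1.05% and 1.04% of interior UMIs. This is 3.38% ± 0.831 at the edge and 1.44% ± 0.599 in the interior (SD, n = 4). The difference was in the direction that the choice of members fixes and is given as a description. Within single sections, the edge share was the higher one in 44 of the 45 sections that had an interior spot.

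**Figure D1:**
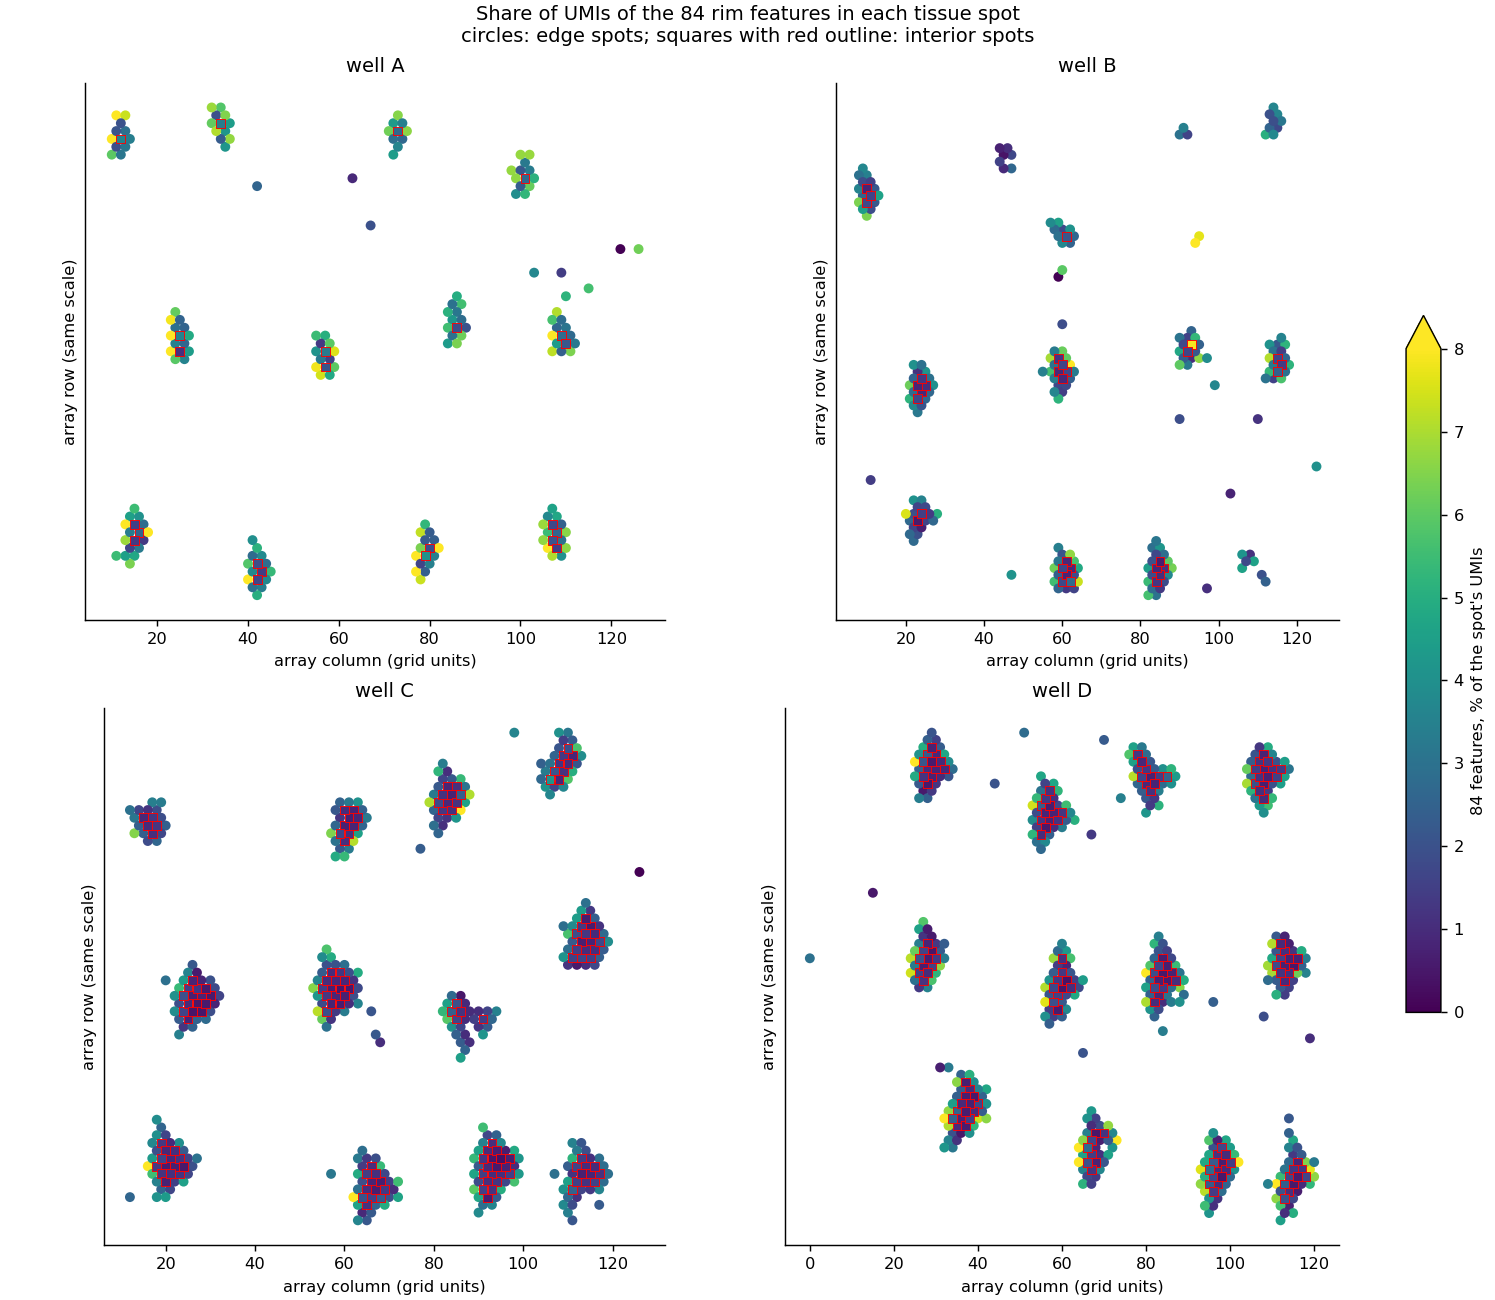
Each mark is a tissue spot at its array position, coloured by the percentage of its UMIs that came from the 84 features (values above 8 have the colour of 8), with circles for edge spots and red-outlined squares for interior spots. The brighter spots line the outer contour of the sections on both sides, and well A is brighter than the others.

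The mean edge over interior log2 ratio ran from 1.0 to 3.12 with a median of 1.23, against a median of 0.29 over the 2684 candidates. Most members lay near the lower limit, 66 of them below 1.5. A set of 8 stood above 2, and the next one below had 1.77. The values just inside the limit were 1.0 for DJKW.11266 and 1.01 for DJKW.17723, and the nearest values outside it were 0.99 for DJKW.6746 and 0.98 for DJKW.12609. Since plain CPM put the median candidate at 0.29 at the edge, the limit corresponds to a smaller excess over the typical candidate: with TMM scaling, which sets that median to 0.06, 41 of the 84 dropped below the limit, though 82 still had a ratio above 0 in 4 of 4 wells.

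**Figure D2:**
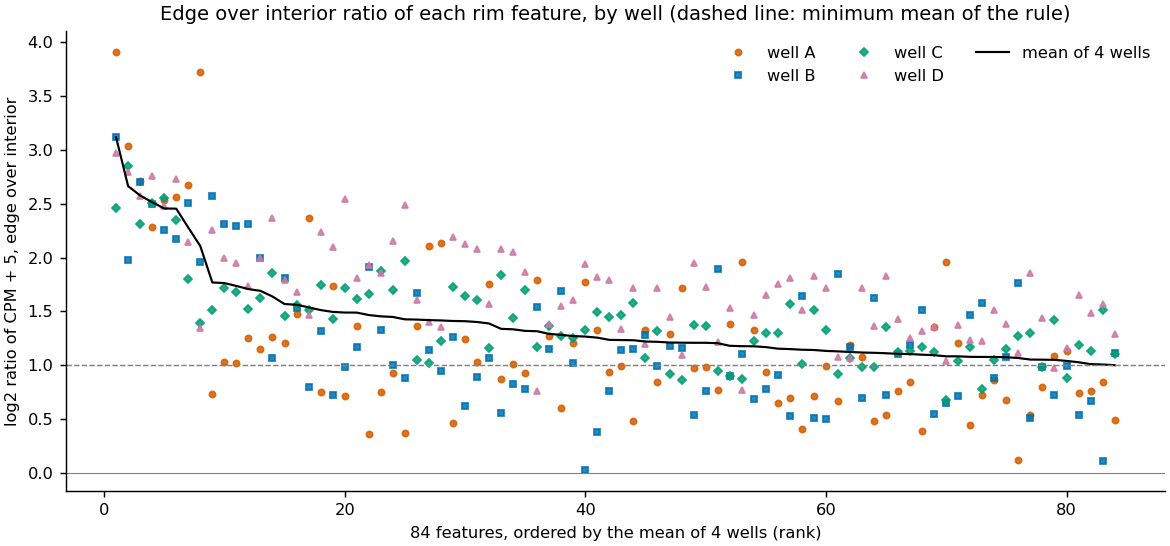
The log2 ratio of CPM + 5 in edge over interior spots is drawn for each of the 84 features (ordered by their mean, black line) and each well (symbols), with the minimum mean of 1 as a dashed line. The first 8 features lie above 2 on average and the rest form a shallow slope, with wells that differ widely for a single feature.

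The feature with the highest ratio was DJKW.22316. It had 205, 109, 113 and 158 CPM in edge spots of wells A, B, C and D, against 9.0, 8.16, 16.3 and 15.7 CPM in interior spots. The lowest edge value was thus several times the highest interior value.

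DJKW.19562 had 294, 167, 160 and 223 CPM at the edge, against 31.5, 38.8, 18.0 and 27.8 CPM in the interior. DJKW.7732 had 305, 173, 222 and 332 CPM at the edge, against 58.5, 26.5, 34.8 and 44.8 CPM in the interior. DJKW.23304 was scarcer, with 86.9, 54.1, 57.8 and 82.3 CPM at the edge, against 9.0, 4.08, 7.62 and 9.68 CPM in the interior. In none of these did the edge wells overlap the interior wells. The interior levels of DJKW.22316 and DJKW.23304 in wells A and B rest on very few UMIs.

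DJKW.8655 was the member with the fifth highest ratio and differed from these in its wells and its side. It had 50.1, 97.1, 117 and 218 CPM at the edge of wells A, B, C and D, against 4.50, 16.3, 15.8 and 35.1 CPM in the interior. Well A was lowest in both places, while the ratios of CPM + 5 stayed close together (mean log2 ratio 2.46 ± 0.13, SD, n = 4). The interior level of well A, 4.50 CPM among 222105 UMIs, rests on very few UMIs. It is below the 5 CPM that the ratio adds, which lowers the ratio of that well, so the closeness depends on this constant.

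The most abundant member was DJKW.16037, with 8064, 4233, 4135 and 6461 CPM at the edge of wells A, B, C and D, against 4196, 2497, 1509 and 1867 CPM in the interior. Its interior value in well A exceeded its edge value in well C, so the groups overlapped across wells and the edge was higher only in the comparison within each well. DJKW.6095 followed with 2447, 2548, 2054 and 3250 CPM at the edge, against 1360, 1116, 936 and 1362 CPM in the interior, without overlap. DJKW.19900 had 2571, 1392, 1719 and 2661 CPM at the edge, against 1297, 818, 666 and 802 CPM in the interior.

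DJKW.25762 had 1518, 1640, 1374 and 1200 CPM at the edge, against 747, 331, 425 and 306 CPM in the interior, one of the steadier edge levels among the abundant members. DJKW.12486 had 662, 1129, 1578 and 1402 CPM at the edge, against 167, 522, 858 and 821 CPM in the interior, and well A was its lowest well. Mean edge levels of the 84 ran from 62.8 to 5724 CPM with a median of 171, and 48 members were under 200 CPM. These are shares of the UMIs of the summed spots and not molecules per cell.

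**Figure D3:**
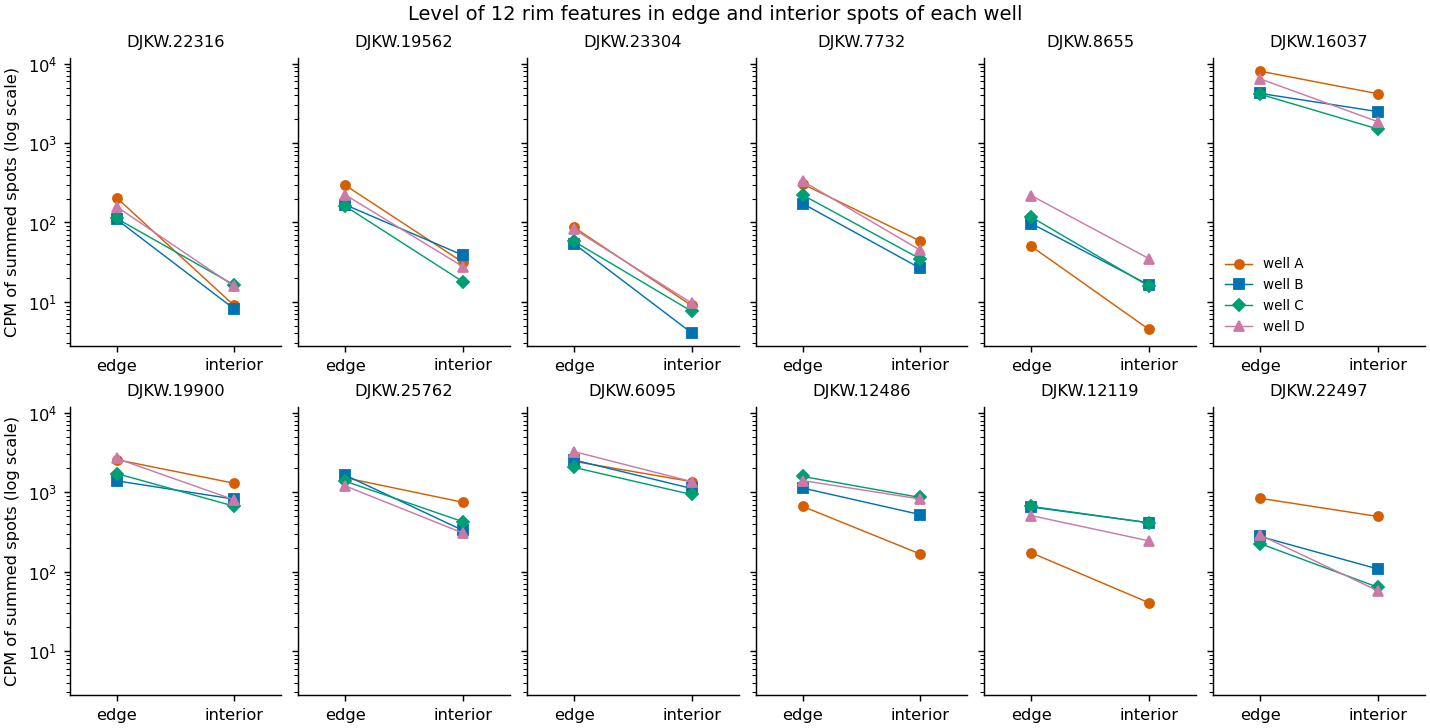
CPM of summed edge spots (left) and interior spots (right) are drawn on a log scale for 12 of the 84 features, with 1 line per well. All lines run lower in the interior, most steeply for the 5 features with the highest ratios, and well A is lowest for DJKW.8655, DJKW.12486 and DJKW.12119 and highest for DJKW.22497.

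All 4 edge values lay above all 4 interior values for 47 of the 84 members (56.0%), against 12.3% of the candidates. Without well A, the same held over 3 wells for 82 members (97.6%), against 46.3% of the candidates. Across the 33 sections with at least 3 interior spots, a member was higher at the edge in 25 to 33 sections, with a median of 32. In spots thinned to 2000 UMIs, the median member had a UMI in 26.4% of edge spots, against 11.7% of interior spots, and the edge share was higher for 84 of 84 members. Without thinning the medians were 59.9% and 44.3%, and the edge share was higher for 72. The thinning left out 74 edge spots and 1 interior spot of lower depth. The counts of wells, sections and spot shares all repeat the contrast that the rule selected on, so nothing is read from them.

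Edge over interior, computed on each side of the section alone, was above 0 in 4 of 4 wells for 75 members on the left and 79 on the right, with median log2 ratios of 1.39 and 1.22. The same held for 29.3% of the candidates on the left and 37.4% on the right. Without well A it held over 3 wells for 83 members on the left and 80 on the right, against 52.5% and 59.6% of the candidates. Both sides enter the sums that the rule selected on, so these counts only describe the members. The left rim was the higher one in 4 of 4 wells for 40 of the 84 members and the right rim for 3, against 36.6% and 9.02% of the candidates. Without well A these counts were 49 (58.3%) and 3 (3.57%) members, against 50.1% and 10.1% of the candidates. The left share is thus not far above that of the candidates, and the right share is below it. The median left over right log2 ratio of all section spots was 0.45, against 0.23 for the candidates, and the upper limit of 0.7 set its top end. With TMM scaling the candidates' median was -0.03, so their lean to the left depends on plain CPM. The counts of the higher rim above were also taken on plain CPM. DJKW.6282 at 0.69 and DJKW.7117 at 0.68 lay just inside that limit, and DJKW.7126 and DJKW.27479, both at 0.70, just outside it.

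The 3 members whose right rim was higher in every well were DJKW.1369, DJKW.5650 and DJKW.8655, named after their values were seen. Over all section spots, DJKW.8655 had left over right log2 ratios of -0.07, -1.32, -0.16 and -0.60 in wells A, B, C and D, and its edge over interior ratio averaged 2.31 on the left and 2.79 on the right. Of the 84, 6 had a mean left over right ratio under 0. In DJKW.11057, 1 of these, the sign differed between wells, with -2.38 in well A and 0.80 in well D. The ratio of section ends over middle had a median of 0.03 and was under 0 for 39 members. It was at least 0.3 for 10 members, above 0 in 4 of 4 wells for 6 and below 0 in 4 of 4 wells for 8. DJKW.12119, for one, had 0.24, 0.51, 0.74 and 0.60 in wells A, B, C and D, and DJKW.12099 had 0.41, 0.20, 0.93 and 0.61, so these members, named after their values were seen, were higher at the ends in every well. The counts of 6 and 8 members are given without the same counts over the candidates, so nothing is read from them. The highest values inside its limit were 0.66 for DJKW.24139 and 0.54 for DJKW.19562, and the nearest outside were 0.82 for DJKW.1785 and 0.87 for DJKW.13045.

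Well A stood apart in the level of many members. Whole-well CPM was highest in well A for 70 of the 84 (83.3%), against 53.1% of the candidates. It was at least 2-fold above every other well for 27 members (32.1%), against 6.78% of the candidates, and 21 of the 82 left-leaning rim features did the same. Sections of well A had the lowest median size, and 157 of its 180 spots were edge spots. The part of this in the whole-well levels was not tested. The 3 members that varied most over wells in edge spots alone were also high there. DJKW.22055 had 574 CPM at the edge of well A and 178, 133 and 133 CPM in wells B, C and D, a coefficient of variation of 0.842. DJKW.22497 had 838 CPM in well A and 277, 225 and 289 CPM in the others, and DJKW.27756 had 174 CPM in well A and 98.8, 46.5 and 36.7 CPM in the others. The 3 steadiest were DJKW.13583 with 63.2 ± 3.98 CPM, DJKW.380 with 72.6 ± 5.84 CPM and DJKW.27708 with 144 ± 14.1 CPM at the edge (SD, n = 4), none of them abundant.

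Edge spots differ in how far they face the outside, and the rule, which summed them, did not use this. Both classes compared here enter the edge sum that the rule selected on. How far that choice carries over into this comparison was not tested. Edge spots of sections with 3 or more of their 6 neighbours off tissue, called more exposed here, were compared with those with 1 or 2 off tissue, called less exposed. Of the 84 members, 56 were higher in more exposed spots and 0 were lower, also 0 at an unadjusted p under 0.05 (edgeR quasi-likelihood test with library as a block, Benjamini-Hochberg adjusted p under 0.05 over 7282 features). Among all features tested, 8.71% were higher and 6.56% were lower, and among the 2684 candidates 7.38% were higher and 11.3% were lower. The median log2 fold change of the members was 0.71, against -0.04 over all features tested, and 79 of the 84 were above 0. All 4 wells had the same sign for 55 of the 56, the exception being DJKW.26494. The same direction was called for 72 of the 82 left-leaning rim features and for 10 of the 18 of the section ends, so the count is not particular to the members.

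The largest change among the members was that of DJKW.15368. Its TMM-scaled level was 169, 121, 129 and 245 CPM in more exposed spots of wells A, B, C and D, against 46.9, 46.7, 52.0 and 77.8 CPM in less exposed spots, a log2 fold change of 1.58 ± 0.12 (SE, adjusted p = 3.91e-06 by edgeR). The lowest more exposed well was above the highest less exposed well. With the split set at 4 or more against up to 3 neighbours off tissue, the log2 fold change of DJKW.15368 was 0.61 and the call was lost (adjusted p = 0.105 by edgeR). DJKW.8655 had 74.5, 129, 209 and 361 CPM in more exposed spots, against 21.4, 62.9, 77.6 and 152 CPM in less exposed spots, a log2 fold change of 1.36 ± 0.12 (SE, adjusted p = 1.01e-05 by edgeR). Its wells overlapped between the classes, while each well alone was higher in more exposed spots. The split at 4 neighbours gave DJKW.8655 a log2 fold change of 0.42 and also ended its call (adjusted p = 0.142 by edgeR).

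DJKW.23304 had 118, 80.2, 106 and 122 CPM in more exposed spots, against 46.9, 31.5, 37.5 and 67.6 CPM in less exposed spots, a log2 fold change of 1.28 ± 0.14 (SE, adjusted p = 4.79e-05 by edgeR), and with the split at 4 neighbours it was 1.24 (adjusted p = 0.000677 by edgeR). The abundant DJKW.16037 rose less, with 9546, 5078, 5268 and 9210 CPM in more exposed spots, against 5551, 3358, 3932 and 5605 CPM in less exposed spots (log2 fold change 0.67 ± 0.07, SE, adjusted p = 3.35e-05 by edgeR). All 8 members with an edge over interior ratio of at least 2 were among the 56.

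DJKW.25762 was not called. It had 1410, 1679, 1448 and 1305 CPM in more exposed spots of wells A, B, C and D, against 1382, 1451, 1480 and 1342 CPM in less exposed spots, a log2 fold change of 0.08 ± 0.07 (SE, adjusted p = 0.522 by edgeR). The 28 members that were not called had a median log2 fold change of 0.14 and reached from -0.22 to 0.46. A p above the threshold does not show that a level is even.

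More exposed spots were shallower, with a median of 6002 to 7272 UMIs by well, against 7514 to 13542 UMIs in less exposed spots, and lay more often in the end parts of a section (56.2% to 64.9%, against 33.8% to 43.7%). They also lay more often on the left side in each well (56.2% to 59.4%, against 46.5% to 54.3%). The part of depth and position in the exposure result was not tested beyond the alternatives that follow. In alternatives added after the data were seen, 56 members were higher among spots of at least 5000 UMIs and 51 among edge spots of the middle part of a section. Of all features tested, 509 of 6775 and 312 of 4744 were higher there. On the left side alone 56 members were higher and on the right side alone 38, against 514 of 6040 and 152 of 4216 features. The members' median log2 fold change was 0.88 on the left side alone and 0.58 on the right side alone. In the middle part, 1 member, DJKW.21078, was lower, against 205 of 4744 features. Without well A, 59 members were higher, against 692 of 7456 features. Comparing 4 or more with up to 3 neighbours off tissue left 26 members higher, against 241 of 6778 features, so fewer features were called in general. The members' median log2 fold change was also smaller under that split, at 0.40 against 0.71, while that of all features was -0.04 in both. The members' share of UMIs stood at 3.54% to 6.0% in spots with 3 neighbours off tissue and at 3.43% to 5.76% in those with 4 or more. The fit without library as a block called 0 members and, of 7282 features, 20 higher and 1 lower.

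**Figure D4:**
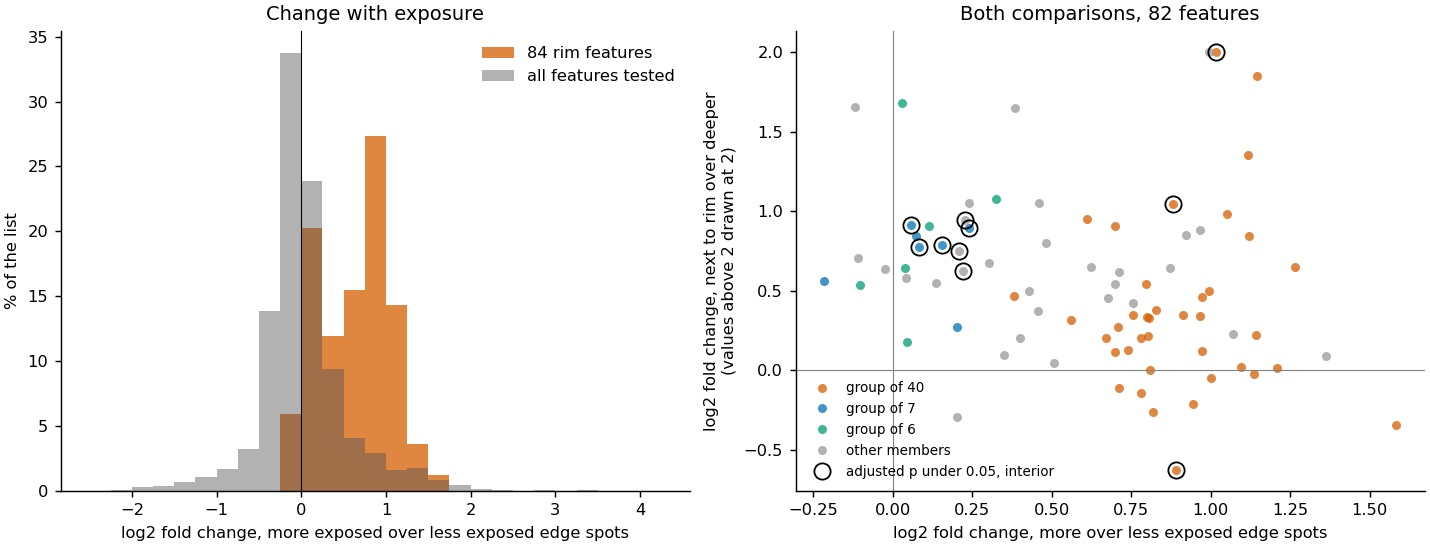
The left panel gives the percentage of the 84 features and of all 7282 tested features by log2 fold change of more over less exposed edge spots, and most of the 84 lie above 0. The right panel sets that change (horizontal) against the change in interior spots next to the rim over deeper ones (vertical, values above 2 drawn at 2) for 82 features, with colours for groups of co-occurring features and rings where the interior test was called.

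By distance from the outside, the members' share of UMIs was 5.93%, 3.71%, 3.51% and 4.50% in more exposed edge spots of wells A, B, C and D, 3.46%, 2.34%, 2.34% and 2.60% in less exposed edge spots, and 2.31%, 1.38%, 1.11% and 1.07% in interior spots touching an edge spot. Interior spots that touch no edge spot existed only in wells C (20 spots) and D (10 spots), with 0.763% and 0.706%. The level was lower at each step inward in 4 of 4 wells for 44 of the 84 members (52.4%), against 7.75% of the candidates, and without well A in 3 of 3 wells for 52 members (61.9%), against 17.5% of the candidates. The step from edge to interior is the one the rule selected on, and wells A and B have no deeper class, so nothing is read from these counts.

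**Figure D5:**
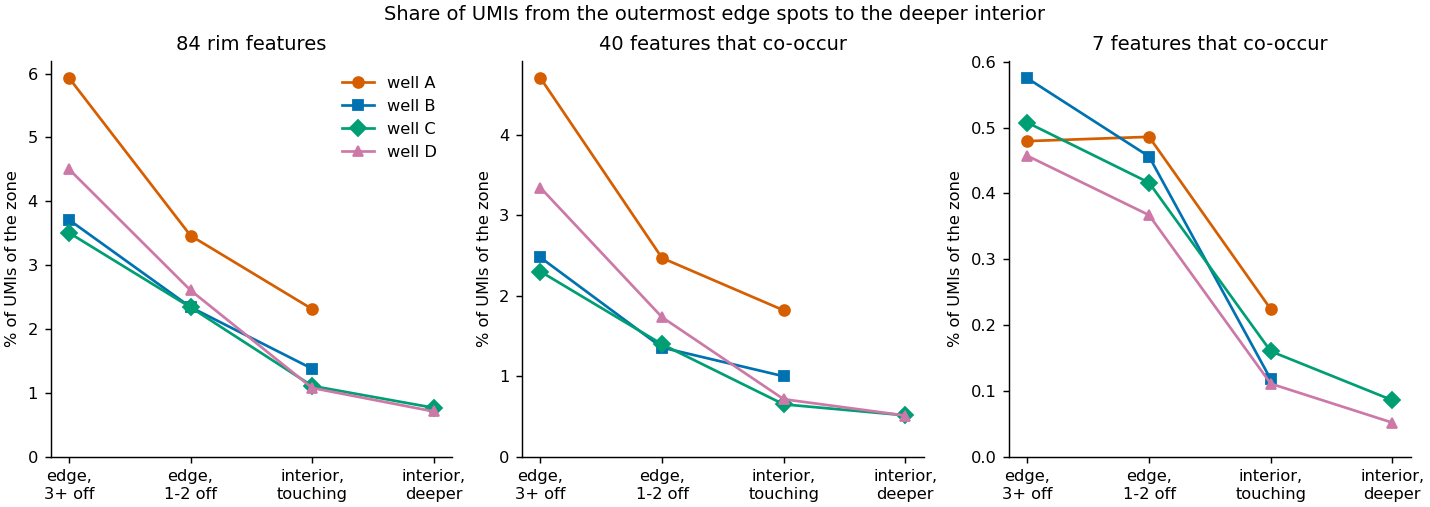
The percentage of UMIs is drawn per well from more exposed edge spots to deeper interior spots, for the 84 features, for 40 features that co-occur and for 7 features that co-occur. The 40 are highest in the outermost spots, while the 7 have their largest step between less exposed edge spots and the interior.

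Interior spots next to the rim were compared with deeper interior spots over wells C and D, a contrast within the interior sum that the rule did not use. With 2 libraries a single feature gives little measure of spread. The p-values of this comparison therefore lean on the spread shared over features. Of 82 members tested, 9 were higher next to the rim and 1 was lower (edgeR quasi-likelihood test with library as a block, adjusted p under 0.05 over 6228 features). Among all features tested, 2.47% were higher and 4.09% were lower, and among the 2666 candidates tested 3.60% were higher and 7.09% were lower. The median log2 fold change was 0.52 for the members and 0.05 for all features tested, and 72 of the 82 were above 0. Of the other rim features, 5 of 75 that lean left and 4 of 17 of the section ends were also higher next to the rim. DJKW.23304 and DJKW.24139 were too scarce to be tested. DESeq2 called 0 members (1 at an unadjusted p under 0.05), as did the fit without library as a block, and with 2 libraries no library can be left out. Of all 6228 features, DESeq2 called 1 and the fit without the block 0, so these counts say nothing particular about the members.

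DJKW.12119 had TMM-scaled levels of 429 and 263 CPM next to the rim in wells C and D, against 215 and 121 CPM in deeper spots, a log2 fold change of 0.94 ± 0.19 (SE, adjusted p = 9.95e-05 by edgeR). DJKW.27962 had 84.3 and 91.2 CPM next to the rim, against 47.0 and 25.4 CPM in deeper spots (log2 fold change 1.04 ± 0.32, SE, adjusted p = 0.0284 by edgeR). DJKW.19222 had 49 and 38 UMIs next to the rim of wells C and D, against 1 and 0 UMIs in deeper spots, a ratio of rates of 13.4 with a 95% exact interval of 2.34 to 536 for counting error (adjusted p = 0.00738 by edgeR). Its size is therefore hardly fixed by these data. Where interior spots were split at 3 or more against up to 2 edge neighbours, DJKW.12119 had a log2 fold change of 0.86 (adjusted p = 0.0178 by edgeR). DJKW.27962, at 0.24 (adjusted p = 0.513 by edgeR), and DJKW.19222, at 0.82 (adjusted p = 0.191 by edgeR), lost their calls under that split. DJKW.27962 also lost its call among spots of at least 5000 UMIs (log2 fold change 1.03, adjusted p = 0.0666 by edgeR). The member that was lower was DJKW.4293, with 112 and 149 CPM next to the rim, against 188 and 172 CPM in deeper spots (log2 fold change -0.63 ± 0.19, SE, adjusted p = 0.0268 by edgeR). It was lower next to the rim in both wells, and it was higher in more exposed edge spots (log2 fold change 0.89 ± 0.10, SE, adjusted p = 6.11e-05 by edgeR). The lower call of DJKW.4293 next to the rim missed the threshold in 6 alternatives. The log2 fold change stayed about as large with DESeq2 (-0.62), among spots of at least 5000 UMIs (-0.63) and without the block (-0.58). It was smaller without the filter on low counts (-0.52), on plain library totals (-0.46) and with the other split of interior spots (-0.29).

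Of the 9 members that were higher next to the rim, 2 were also higher in more exposed edge spots (DJKW.19222 and DJKW.27962) and 7 were not called there. The 7 were DJKW.12119, DJKW.2507, DJKW.12486, DJKW.25762, DJKW.25763, DJKW.1339 and DJKW.10415, listed after their values were seen. DJKW.25762, for one, had 436 and 330 CPM next to the rim of wells C and D, against 262 and 152 CPM in deeper spots (log2 fold change 0.78 ± 0.18, SE, adjusted p = 0.0012 by edgeR), and its levels in the classes of edge spots are given above. Whether members differ from each other in these profiles was not tested.

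Members also occurred in the same edge spots to different degrees. Over 819 edge spots of at least 1000 UMIs, the correlation of log levels, averaged over wells, had a median of 0.124 for the 3486 pairs of members, against 0.026 for all pairs of candidates. It was 0.148 between members and left-leaning rim features (6888 pairs), so the co-occurrence is not particular to the members. Spots of a well share their library, and depth and exposure vary along with them, so these are descriptions. The highest correlations were 0.817 between DJKW.16037 and DJKW.19900 and 0.769 between DJKW.16037 and DJKW.24054. DJKW.24054 had 1177, 587, 614 and 915 CPM at the edge of wells A, B, C and D, against 581, 328, 223 and 217 CPM in the interior.

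Average linkage at a mean correlation of 0.25, a value set after the correlations were seen, put 40 members in 1 group, 7 and 6 in the next ones, and left 3 pairs and 25 single members. The group of 40 held DJKW.16037, DJKW.19900, DJKW.24054 and DJKW.6095 and also DJKW.22316, DJKW.19562, DJKW.7732, DJKW.23304 and DJKW.15368. All 40 were among the 56 that rose with exposure, with a median log2 fold change of 0.89, and well A was at least 2-fold above every other well for 22 of them. Their summed share of UMIs was 3.21% ± 1.10 in more exposed edge spots, 1.74% ± 0.516 in less exposed ones and 1.05% ± 0.538 in interior spots touching the edge (SD, n = 4).

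The group of 7 was DJKW.1339, DJKW.5650, DJKW.10415, DJKW.10468, DJKW.22043, DJKW.25762 and DJKW.25763. None of the 7 was called for exposure, with a median log2 fold change of 0.08, and 4 were called higher next to the rim than deeper. Well A was at least 2-fold above the others for 0 of them. Their summed share was 0.505% ± 0.0512 in more exposed edge spots, 0.432% ± 0.0515 in less exposed ones and 0.153% ± 0.0522 in interior spots touching the edge (SD, n = 4). The group of 6 was DJKW.3625, DJKW.8828, DJKW.18718, DJKW.20210, DJKW.25934 and DJKW.25935. None of these was called for exposure (median log2 fold change 0.04) or next to the rim. The groups were formed on the same edge spots as the exposure comparison, so the difference between them is a description.

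The position along the array rows and the size of the section gave no call. Between edge spots on the low-row and the high-row side of a section, 0 members were higher and 0 lower, as for all features (0% higher and 0% lower of 7455, edgeR adjusted p under 0.05). At an unadjusted p under 0.05 there were 6 members and 345 features, and DESeq2 called 0 members. The members' log2 fold changes ran from -0.34 to 0.50. Between edge spots of larger and of smaller sections of a well, 0 members were higher and 0 lower, again with 0% higher and 0% lower of 7366 features by edgeR. At an unadjusted p under 0.05 there were 7 members and 346 features, DESeq2 called 0 members, and the log2 fold changes ran from -0.27 to 0.48.

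Patchiness along the rim was measured as Moran's I among section edge spots, less its expectation, which is above 0 where neighbouring edge spots resemble each other. It was called above 0 for 7 of 83 members (limma with trend over 4 wells, adjusted p under 0.05), against 5.56% of 3491 features, close to that background as a share (8.43%). The rim features of the section ends reached 10 of 15 tested and the left-leaning ones 15 of 80. DJKW.5650 had too few positive spots to be tested.

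DJKW.12119 was the patchiest, with 0.081, 0.352, 0.172 and 0.225 in wells A, B, C and D (mean 0.208, adjusted p = 8.66e-07 by limma). DJKW.6095 had 0.106, 0.316, 0.122 and 0.219 (mean 0.191, adjusted p = 0.000478 by limma), and DJKW.2507 had 0.036, 0.277, 0.224 and 0.168 (mean 0.176, adjusted p = 5.93e-05 by limma). Every well was above 0 for these 3. The other called members were DJKW.1369, DJKW.8655, DJKW.12486 and DJKW.27756. The lowest mean was that of DJKW.26523, at -0.162, -0.139, 0.107 and -0.003 in wells A, B, C and D, with signs that differed between wells (adjusted p = 0.548 by limma). After thinning to 2000 UMIs, the mean was 0.0753 for DJKW.12119, 0.0951 for DJKW.6095 and 0.093 for DJKW.2507 (adjusted p = 0.25, 0.128 and 0.0987 by limma), so the size as well as the call changed with thinning. In those spots, 0 of 41 members tested were called by limma, with 9 at an unadjusted p under 0.05, and without well C 3 members were called. Neither setting has a count over all features here, so these counts say nothing particular about the members.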

How the data were processed

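The authors deposited spot positions and unnormalised UMI counts. Per the file headers, Space Ranger 2.0.1 made the count matrices. The submitters' processing notes also name Seurat. The genome build was not given in the sources used here. Members, lists and tests were chosen with earlier results of these data known.

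Edge and interior were set from positions alone, over all tissue spots for the edge over interior ratio and over section spots for the other ratios and for exposure. The ratios that chose the members were computed on plain CPM + 5 per well. Counts were summed per library and class of spots, and a library entered a test with at least 5 spots and 20000 UMIs in each class. Sums were fitted in R 4.3.3 with edgeR 4.0.16 (filterByExpr, TMM, quasi-likelihood F-test, library as a term, because both classes lie on the same sections of a well) over all features, with Benjamini-Hochberg adjustment and a call at an adjusted p under 0.05. A standard error is the log2 fold change divided by the root of F. Moran's I was computed for features with a UMI in at least 20% of edge spots of every well and tested with limma 3.58.1. Scripts were tested on simulated data. Spots are not cells, and no doublet caller was run.

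Named features were, by rule, the 5 with the highest edge over interior ratio, the 5 most abundant at the edge, the 3 most and 3 least variable over wells, up to 3 per direction and test, the 3 highest and the lowest in Moran's I, the 2 most correlated pairs, and the 2 nearest each side of a ratio limit. Alternatives were DESeq2 1.42.0, library totals, no filter, no block, other splits, deeper spots, thinning, other scaling and each well left out.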

Additional observations from a re-analysis of the deposited data

Results flagged for a closer look

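In 5 named members, the edge level of well A lay farther from the other 3 wells than Dixon's criterion allows, among 50 sets of 4 wells checked. Chance flags about 1 in 20 sets, but that rate does not apply here, since DJKW.22055 and DJKW.22497 were named for their spread over wells and the members co-occur. The 5 are DJKW.22055 with 574 CPM in well A and 133 to 178 CPM in the others, DJKW.22497 with 838 CPM and 225 to 289 CPM, DJKW.19222 with 407 CPM and 112 to 155 CPM, DJKW.27962 with 863 CPM and 252 to 317 CPM, and DJKW.26523 with 921 CPM and 258 to 334 CPM. All 5 belong to the group of 40 members that co-occur in edge spots, and the edge over interior ratio of none of the 5 was flagged. Well A has the fewest UMIs and the fewest interior spots of the series, and the part of either in these levels was not tested.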

How the results depend on the processing

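For exposure, 51 to 66 members were higher under library totals, DESeq2, no filter, spots of at least 1000 or 5000 UMIs and the left side or middle part alone, and 38 on the right side. Of all features tested (4744 to 17858), 312 to 852 were higher in the former settings, and 152 of 4216 on the right side. The exceptions were the split at 4 neighbours off tissue (26, and 241 of 6778 features) and the fit without replicate block (0, and 20 of 7282 features). Leaving out 1 well gave 51 to 59 members and 417 to 692 of all features. Members that were lower numbered 0 in these settings, except 1 in the middle part of the sections. On library totals the median of all features moved by over 0.1, to 0.10 from -0.04 under TMM, and 73.9% of all calls were higher, against 57.0% under TMM. The pairing of the classes comes from the wells and sections they share, so the block is part of the design.

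Inside the interior, 6 to 11 members were higher next to the rim under library totals, no filter, the other split and deeper spots, but 0 with DESeq2 and 0 without replicate block. Those 2 fits called 1 and 0 of all 6228 features. In the former settings, 71 to 240 of all features tested (6161 to 14552) were higher, against 154 of 6228 in the main fit. The 1 member that was lower became 0 under library totals, DESeq2, no filter, no replicate block, the other split and spots of at least 5000 UMIs. Of all features tested, 0 to 171 were lower in these settings, against 255 in the main fit. On library totals 67.6% of all calls were higher, against 37.7% under TMM. No fit without a well was possible, because 1 library would remain. Rows and section size gave 0 members in every setting. Of all features, rows gave 0 or 1 call and section size 0 to 3 calls, except without the filter on low counts. That setting called 23 higher and 4 lower of 17709 features for rows, and 30 higher and 6 lower of 17858 for size.

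Patchiness was called for 7 members, 8 on square roots, 10 in spots of at least 1000 UMIs, 0 after thinning and 3 to 9 without 1 well (3 without well C). A count over all features is given for the main setting alone, so a general change in calls cannot be told apart. The number of members was 83 to 122 with section spots alone, a pseudocount of 1 CPM or a limit of 0.8, 51 with a limit of 1.2, and 72 to 88 without 1 well, of which 57, 65, 71 and 61 were among the 84 without wells A, B, C and D. With TMM-scaled CPM it was 77, of which 43 were among the 84. Of 91 values of single members under alternatives, 68 kept their direction and side of the threshold, 23 kept their direction but missed the threshold, and 0 changed sign. The cause of these changes was not tested. Interior values of wells A and B and the deeper spots of wells C and D rest on few spots, which limits the comparisons inside the section.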
